A study of Rattus norvegicus with 8 samples.

Results

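Respiratory complex I is the first enzyme of the mitochondrial electron transport chain, and the genes described here encode its nuclear subunits and the factors that assemble it. They were taken as every gene whose symbol begins with Nduf followed by a, b, c, s, v, ab or af and a digit, with a mean expected count of 10 or more over the 8 libraries. That gave 42 of the 17168 genes listed, 36 with subunit symbols and 6 assembly factors (Ndufaf genes). Each of the 42 symbols that match the pattern met the count minimum, the lowest means being 35.1 counts for Ndufa4l2 and 66.1 for Ndufaf6. Ndufa3, Ndufa13, Ndufb1, Ndufc1, Ndufaf2, Ndufaf8 and the subunits encoded in mitochondrial DNA were not analysed here.

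RNA was sequenced from medial prefrontal cortex homogenate of male Sprague-Dawley rats in 8 libraries. The 4 HI libraries (HI1 to HI4) are from rats of high motor impulsivity, which scored in the upper quartile for premature responding (1-CSRT task), and the 4 LI libraries (LI1 to LI4) are from rats of low motor impulsivity, in the lower quartile. The labels name no drug or genetic change, and the groups were formed by behaviour. Whether every library comes from its own animal is not stated, so the p-values measure the spread between these libraries.

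Complex I oxidises NADH, passes the electrons along a chain of iron-sulfur clusters to ubiquinone and pumps protons across the inner mitochondrial membrane. A matrix arm carries the flavin and the clusters, and a membrane arm carries the proton pumps. Around a conserved catalytic core sit supernumerary subunits, mostly small proteins that stabilise the enzyme, and assembly factors join the modules but are absent from the finished complex. Neurons rely heavily on oxidative phosphorylation, and inherited complex I deficiency is a known cause of Leigh syndrome, a disease of the brain.

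Nuclear genes of the respiratory chain are known targets of NRF-1, a factor that binds a GC-rich palindrome. RefSeq promoter windows (build GRCr8, 250 bases before to 50 bases after the gene's start) were found for 37 of the 42 members, and 3 of the 37 held the NRF-1 palindrome. The 250 bases upstream of those 3 genes are shown as background, with the palindrome in capitals. They lie at chr9:1637364-1637613 for Ndufa11, chr5:43401545-43401794 for Ndufaf4 and chr3:147961362-147961611 for Ndufaf5, all on the plus strand.
Ndufa11: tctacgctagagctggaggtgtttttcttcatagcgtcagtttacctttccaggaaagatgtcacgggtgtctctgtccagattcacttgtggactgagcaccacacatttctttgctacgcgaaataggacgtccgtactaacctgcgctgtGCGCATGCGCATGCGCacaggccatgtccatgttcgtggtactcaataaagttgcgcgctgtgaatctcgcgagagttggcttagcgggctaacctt
Ndufaf4: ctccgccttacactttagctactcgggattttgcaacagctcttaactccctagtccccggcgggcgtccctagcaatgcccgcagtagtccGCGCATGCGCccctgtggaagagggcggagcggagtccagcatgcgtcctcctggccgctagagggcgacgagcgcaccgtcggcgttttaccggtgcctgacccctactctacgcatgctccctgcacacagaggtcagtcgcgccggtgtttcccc
Ndufaf5: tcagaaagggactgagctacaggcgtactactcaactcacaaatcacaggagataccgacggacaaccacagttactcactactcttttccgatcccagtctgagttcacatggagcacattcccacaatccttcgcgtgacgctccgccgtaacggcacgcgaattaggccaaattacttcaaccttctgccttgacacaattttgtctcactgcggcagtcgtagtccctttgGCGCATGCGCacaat

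Ndufa11 held 2 overlapping copies, and Ndufaf4 and Ndufaf5 held 1 each. The NRF-1 sequence was in 8.11% of member windows, 1.91% of the windows of tested genes and 0.852% of all 33469 windows. TGCGCA, searched as a second, shorter NRF-1 sequence, is not contained in the palindrome itself. It was in 12 of 37 member windows (32.4%), against 13.4% of tested genes and 7.24% of all windows. AAGATGG, a YY1 sequence, was in 8 members (21.6%, against 8.06% and 7.01%). The ETS sequence CCGGAAG was in 7 (18.9%, against 16.6% and 8.75%). The cyclic AMP response element TGACGTCA was in 2, Ndufa10 and Ndufb2 (5.41%, against 3.25% and 1.83%). Sp1 boxes (GGGCGG) were in 17 (45.9%, against 62.4% and 33.1%), and the TATA sequence TATAAA in 3 (8.11%, against 6.77% and 14.2%). TCAAGGTCA, an ERR sequence, was in 0 of the 37. These are matches of letters on both strands of the window, not measured binding.

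The libraries held 7354416 to 9476656 rounded counts and differed in content. Ribosomal RNA took 0.406% of counts in HI4, 0.418% in LI3, 1.37% in LI4 and 3.96% in HI3. In HI1, LI1 and LI2 it took between 5.44% and 6.42%, and in HI2 it took 25.5%. HI4 and LI3 stood apart in many members below. The slope of log2 CPM on log2 transcript length was 0.13 in HI4, towards longer transcripts, and between -0.08 and 0.01 in the other 7. All 34 marker genes for neurons, glia, vessels, striatum and blood had counts in every library, the excitatory neuron marker Slc17a7 with means of 1324 CPM over HI and 1221 CPM over LI. The summed neuron markers reached 10187 CPM in HI4 and 8559 CPM in LI3, and 4623 to 6601 CPM in the other 6, and Snap25 alone made up 7193 and 5848 CPM of these sums in HI4 and LI3. Without Snap25 the other 5 neuron markers summed to 2994 CPM in HI4 and 2711 CPM in LI3, inside the 2523 to 3112 CPM of the other 6. Like Snap25, Rbfox3 (277 and 279 CPM) and Syt1 (1564 and 1127 CPM) were highest in HI4 and LI3. Slc17a7 was lowest in HI4 and LI3, at 865 and 961 CPM. The inhibitory neuron marker Gad1 was lowest in HI4, at 215 CPM, close to HI2 at 220 CPM. Gad2, at 72.4 CPM in HI4 and 80.9 CPM in LI3, lay inside the range of the other 6. Summed microglia markers lay between 163 and 183 CPM in HI and between 189 and 209 CPM in LI, without overlap. LI2 held the highest oligodendrocyte sum, 6348 CPM, where the other 7 held 1665 to 3393 CPM. It also held the highest striatum sum, 667 CPM, where the other 7 held 255 to 304 CPM. The part of this difference in the LI2 values below was not tested.

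Subunit transcripts were more abundant than assembly factor transcripts, which lay near the level of the median gene. Levels between genes are compared as TPM, the deposited measure scaled for transcript length. The mean over the 8 libraries had a median of 243 TPM for the 36 subunit symbols and 25.5 TPM for the 6 assembly factors, against 27.9 TPM for all genes tested. Ndufb4 was highest at 675 TPM, followed by Ndufb9 at 603, Ndufs5 at 554 and Ndufa4 at 519 TPM. Core subunits lay between 139 (Ndufs1) and 325 TPM (Ndufv2), a narrower range than that of the supernumerary subunits, 39.3 to 675 TPM. The lowest supernumerary value was that of Ndufab1, the mitochondrial acyl carrier protein, whose listed transcript of 2569 bases is the longest among the members. Next above it came Ndufa10 at 90.2 TPM. The assembly factors ran from 17.2 TPM for Ndufaf6 and Ndufaf1 to 56.5 TPM for Ndufaf5, so that Ndufab1 and Ndufa4l2 (9.95 TPM) were the 2 subunit symbols inside or below their range.

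**Figure D1:**
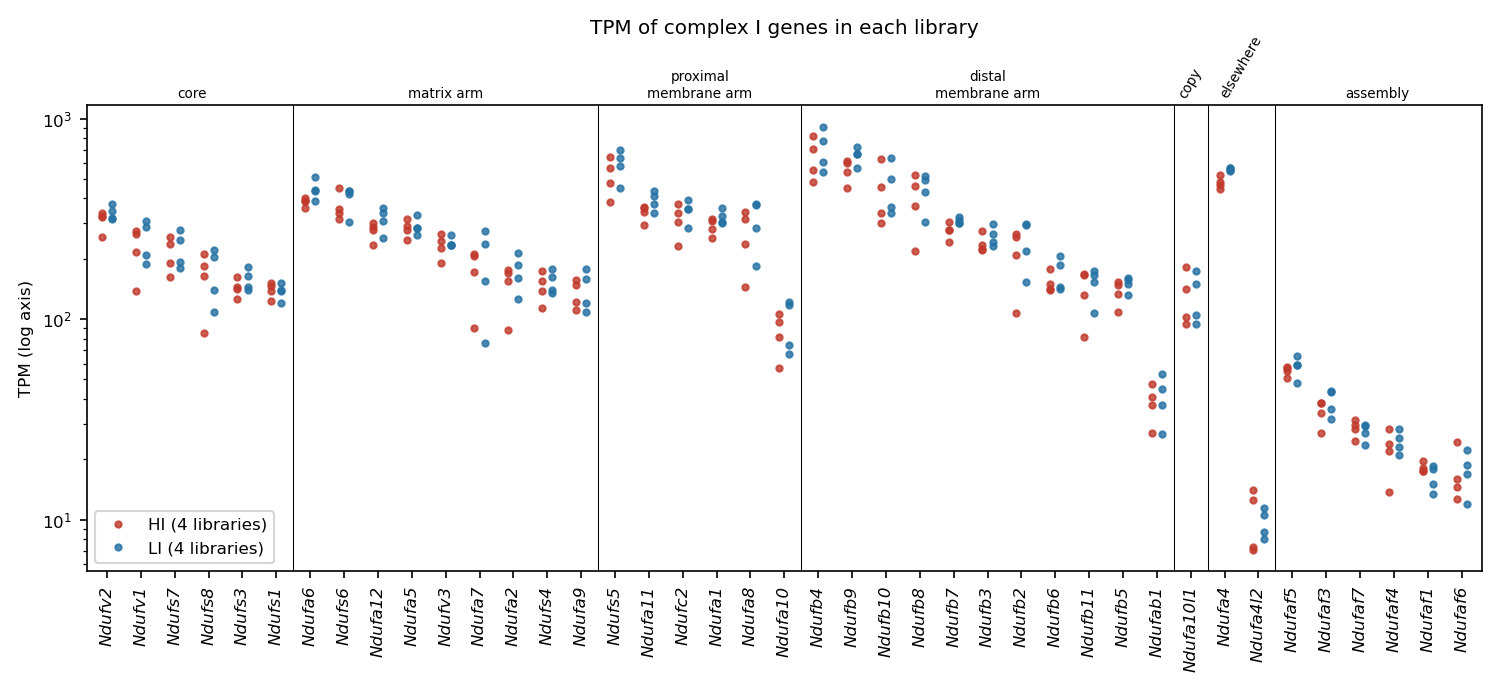
TPM of the members shown (log axis) in the 4 HI (red) and 4 LI (blue) libraries, 1 point per library, ordered by role and level; "copy" is Ndufa10l1 and "elsewhere" holds Ndufa4 and Ndufa4l2. Nearly all subunit genes lie above the assembly factors, whose means run from 17.2 to 56.5 TPM.

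HI was compared with LI to see which transcripts go with motor impulsivity. Most subunit transcripts had slightly lower values in HI, and none passed the test across all genes. In edgeR's quasi-likelihood test 0 of the 42 members passed an adjusted p of 0.1, as did 0% of the 11631 genes tested, and the adjusted p was 1.00 for each member. DESeq2 also called 0 members, with 0.327% of all genes called. It gave no adjusted p for 3837 genes, 3 of them members (Ndufa4l2, Ndufaf1 and Ndufaf6), which therefore could not be called. At an unadjusted p under 0.05 there was 1 member, Ndufa4, lower in HI, where 1.09% of all genes were lower at that level, and 0 members were higher, where 3.07% of all genes were. The fitted log2 fold change was below 0 in 34 of the 36 subunit symbols and in 4 of the 6 assembly factors, against 51.5% of all genes. Its median was -0.13 for subunits, -0.05 for assembly factors and -0.01 for all genes, while the median SE of a member was 0.16. In homogenate, fewer cells of a type and less RNA per cell cannot be told apart.

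The sizes depended on single libraries. Without HI4 the subunit median was -0.08 with 25 of 36 below 0, and without HI1 it was -0.18 with 32 below 0. Over the fits that left out 1 library other than HI4 it lay between -0.18 and -0.10. There 28 (without LI3) to 35 (without HI3) of the 36 were below 0. The assembly factor median had no stable sign, at 0.01 without HI4, 0.0042 without LI2, -0.10 without HI1 or LI4, and between -0.03 and -0.01 without HI2, HI3, LI1 or LI3. The mean log2 deviation of subunits minus that of assembly factors was -0.07, 0.03, 0.02 and -0.17 for HI1 to HI4, and for LI1 to LI4 it was 0.05, -0.02, 0.02 and 0.15, and the groups overlapped.

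The 7 catalytic core subunits had a median log2 fold change of -0.12, with 6 of 7 below 0. Ndufs7, which holds the last cluster of the chain, stood at 68.9, 80.3, 57.4 and 47.3 CPM in HI1 to HI4 and 75.6, 80.3, 54.1 and 57.0 CPM in LI1 to LI4. Here HI4 and LI3 were the lowest of their groups, the groups overlapped, and the log2 fold change was -0.07 ± 0.19 (SE, as for each fold change below). Ndufs8, another cluster subunit of the same module, stood at 63.9, 60.2, 51.0 and 25.7 CPM in HI1 to HI4 and 65.0, 66.4, 34.1 and 43.0 CPM in LI1 to LI4. HI4 was again lowest, LI3 next, and the groups differed by -0.05 ± 0.30.

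Ndufs3, one of the first subunits to be assembled, stood at 72.6, 68.6, 67.0 and 57.1 CPM in HI1 to HI4 and 78.0, 81.3, 67.9 and 64.1 CPM in LI1 to LI4. Its groups overlapped, with a log2 fold change of -0.13 ± 0.12. Ndufv1, which binds the flavin and takes electrons from NADH, stood at 174, 196, 147 and 90.1 CPM in HI1 to HI4 and 198, 199.5, 128 and 138 CPM in LI1 to LI4. The low values were again HI4, LI3 and LI4, and the log2 fold change was -0.13 ± 0.24. Its partner Ndufv2 stood at 114, 98.2, 123 and 115 CPM in HI1 to HI4 and 128, 110.2, 138 and 114 CPM in LI1 to LI4. HI2, among the highest in Ndufv1, was lowest in Ndufv2, LI3 was highest, and the log2 fold change was -0.13 ± 0.12. Ndufs1, the large iron-sulfur subunit, stood at 167, 152, 162 and 172 CPM in HI1 to HI4 and 165, 158, 179 and 139 CPM in LI1 to LI4. It was the only core subunit with a value above 0, 0.03 ± 0.11. The sign turned without HI4 for Ndufs8 (0.16), Ndufs7 (0.04), Ndufv1 (0.05) and Ndufs1 (-0.0012). It also turned for Ndufs8 without LI1 (0.06) or LI2 (0.08), for Ndufs7 without LI2 (0.03) and for Ndufs1 without LI4 (-0.04).

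All 9 supernumerary subunits of the matrix arm were below 0, with a median log2 fold change of -0.11. Ndufa6, a LYR-motif protein that docks an acyl carrier, stood at 73.6, 73.6, 76.5 and 77.1 CPM in HI1 to HI4 and 88.0, 72.9, 101 and 84.1 CPM in LI1 to LI4. The HI values were tightly grouped and LI2 lay below all of them, and the log2 fold change was -0.20 ± 0.12. Ndufa12, whose paralog Ndufaf2 holds its place during assembly, stood at 57.4, 52.4, 64.5 and 59.2 CPM in HI1 to HI4 and 66.7, 51.9, 77.3 and 70.8 CPM in LI1 to LI4. LI2 was the lowest of the 8, so the groups overlapped, at -0.19 ± 0.14. Ndufa2, a thioredoxin-fold subunit, stood at 37.2, 38.8, 33.8 and 18.6 CPM in HI1 to HI4 and 47.6, 39.1, 27.7 and 34.4 CPM in LI1 to LI4. HI4 was the lowest at 18.6 CPM and LI1 the highest, and the log2 fold change was -0.21 ± 0.24. The other 6 (Ndufs4, Ndufs6, Ndufv3, Ndufa5, Ndufa7 and Ndufa9) lay between -0.13 and -0.04, and Ndufs4, a subunit mutated in Leigh syndrome, was at -0.08 ± 0.14.

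All 6 subunits of the proximal membrane arm were below 0, with a median of -0.18. Ndufa11, a small membrane protein with the NRF-1 palindrome shown above, stood at 68.0, 59.8, 66.5 and 67.5 CPM in HI1 to HI4 and 74.0, 62.6, 84.7 and 78.3 CPM in LI1 to LI4. HI values lay between 59.8 and 68.0 CPM and LI2 lay among them, at a log2 fold change of -0.19 ± 0.12. Ndufa1, a single-helix subunit, stood at 44.8, 43.3, 45.2 and 36.2 CPM in HI1 to HI4 and 53.5, 43.3, 48.5 and 43.8 CPM in LI1 to LI4. HI4 was the lowest, the groups overlapped, and the log2 fold change was -0.16 ± 0.12. Ndufs5, on the intermembrane side, stood at 91.7, 80.5, 113 and 125 CPM in HI1 to HI4 and 117, 86.2, 141 and 125 CPM in LI1 to LI4. HI2 and LI2 were the lowest of their groups, and the log2 fold change was -0.20 ± 0.18. Ndufa8 (-0.21 ± 0.29), Ndufc2 (-0.15 ± 0.16) and Ndufa10 (-0.14 ± 0.24) also overlapped.

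All 11 subunits of the distal membrane arm were below 0, with a median of -0.15. Ndufb9, the second LYR-motif subunit, stood at 134, 121, 158 and 150.01 CPM in HI1 to HI4 and 175, 139, 172 and 183 CPM in LI1 to LI4. It had the lowest log2 fold change of all members, -0.25 ± 0.13, but LI2 lay inside the HI range. Ndufb7, a twin-cysteine protein on the intermembrane side, stood at 55.7, 52.7, 57.6 and 61.0 CPM in HI1 to HI4 and 63.6, 61.6, 67.4 and 61.1 CPM in LI1 to LI4. All HI lay below all LI, though HI4 and LI4 differed by under 1 CPM, and on the TPM scale the groups overlapped. Its log2 fold change was -0.16 ± 0.10. Ndufb6 stood at 43.2, 39.5, 35.4 and 34.5 CPM in HI1 to HI4 and 47.8, 49.97, 36.9 and 35.0 CPM in LI1 to LI4. Its groups overlapped at -0.15 ± 0.15, and the other 8 of the arm lay between -0.19 (Ndufb2) and -0.08 (Ndufab1).

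Ndufa4 carries a complex I name but is now assigned to cytochrome c oxidase, complex IV. It stood at 167, 155, 160.3 and 149.9 CPM in HI1 to HI4 and 191, 173, 184 and 183 CPM in LI1 to LI4. Every HI library lay below every LI library, with means of 158 ± 7.34 CPM (SD, n = 4) over HI and 183 ± 7.52 CPM over LI (SD, n = 4). The log2 fold change was -0.21 ± 0.09 and did not pass (edgeR adjusted p = 1.00). Its paralog Ndufa4l2, known as a hypoxia-induced gene, stood at 4.96, 3.14, 5.74 and 2.80 CPM in HI1 to HI4 and 4.37, 3.41, 3.32 and 4.61 CPM in LI1 to LI4. These are few counts, the groups overlapped, and the value of 0.09 ± 0.28 turned to -0.10 without HI3.

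HI and LI did not overlap in 3 of the 42 members, Ndufa4 and Ndufb7 among them, all with HI below (7.14% of members). This separation was found in 1.14% of all genes tested and in 4.84% of the 516 tested genes under 750 bases. In 0 members was HI above LI throughout, where 2.31% of all genes were. On the TPM scale 2 members did not overlap, Ndufa4 among them, and 1.11% of all genes had HI below LI. There 0 members and 1.54% of all genes had HI above LI.

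The 6 assembly factors had lower counts than most subunits and lay on both sides of 0. Ndufaf1, which works with Ecsit and Acad9 on the membrane arm, stood at 11.5, 13.9, 11.9 and 11.8 CPM in HI1 to HI4 and 12.4, 11.99, 10.3 and 9.01 CPM in LI1 to LI4. LI3 and LI4 were lowest and HI2 highest, and its log2 fold change of 0.16 ± 0.16 was the highest among members. Ndufaf3, which pairs with Ndufaf4 on the ubiquinone module, stood at 28.0, 30.3, 25.9 and 19.8 CPM in HI1 to HI4 and 33.4, 32.1, 24.4 and 26.7 CPM in LI1 to LI4. The log2 fold change was -0.17 ± 0.17, with HI4 lowest. Ndufaf4 stood at 20.5, 13.9, 22.9 and 26.5 CPM in HI1 to HI4 and 22.5, 19.3, 27.3 and 24.1 CPM in LI1 to LI4. In contrast to its partner it was high in HI4 and LI3 and lowest in HI2, and differed by -0.15 ± 0.20 (0.0015 without HI2).

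Ndufaf5, which hydroxylates Ndufs7, stood at 26.7, 25.8, 26.4 and 27.0 CPM in HI1 to HI4 and 28.9, 27.1, 31.8 and 22.7 CPM in LI1 to LI4. The HI values spanned little over 1 CPM inside the LI range, at -0.06 ± 0.13 (0.01 without LI3). Ndufaf6, needed early for the membrane arm, stood at 10.8, 7.60, 6.58 and 5.59 CPM in HI1 to HI4 and 8.64, 9.72, 5.49 and 7.54 CPM in LI1 to LI4. It had the fewest counts of the 6 and differed by -0.04 ± 0.25, a sign that turned without HI3, HI4, LI1 or LI2 (0.0070 to 0.09). Ndufaf7, a methyltransferase, stood at 34.02, 28.9, 33.1 and 30.6 CPM in HI1 to HI4 and 33.6, 31.4, 30.5 and 26.1 CPM in LI1 to LI4. It differed by 0.06 ± 0.12, and by -0.01 without LI4. Of 12 listed assembly genes with other names 8 were tested, 5 below and 3 above 0 with a median of -0.05 and 0 called. Ecsit averaged 44.3 ± 2.21 CPM (SD, n = 4) over HI and 46.97 ± 0.846 CPM (SD, n = 4) over LI, with a log2 fold change of -0.08 ± 0.10. Acad9 differed by -0.04 ± 0.19.

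**Figure D2:**
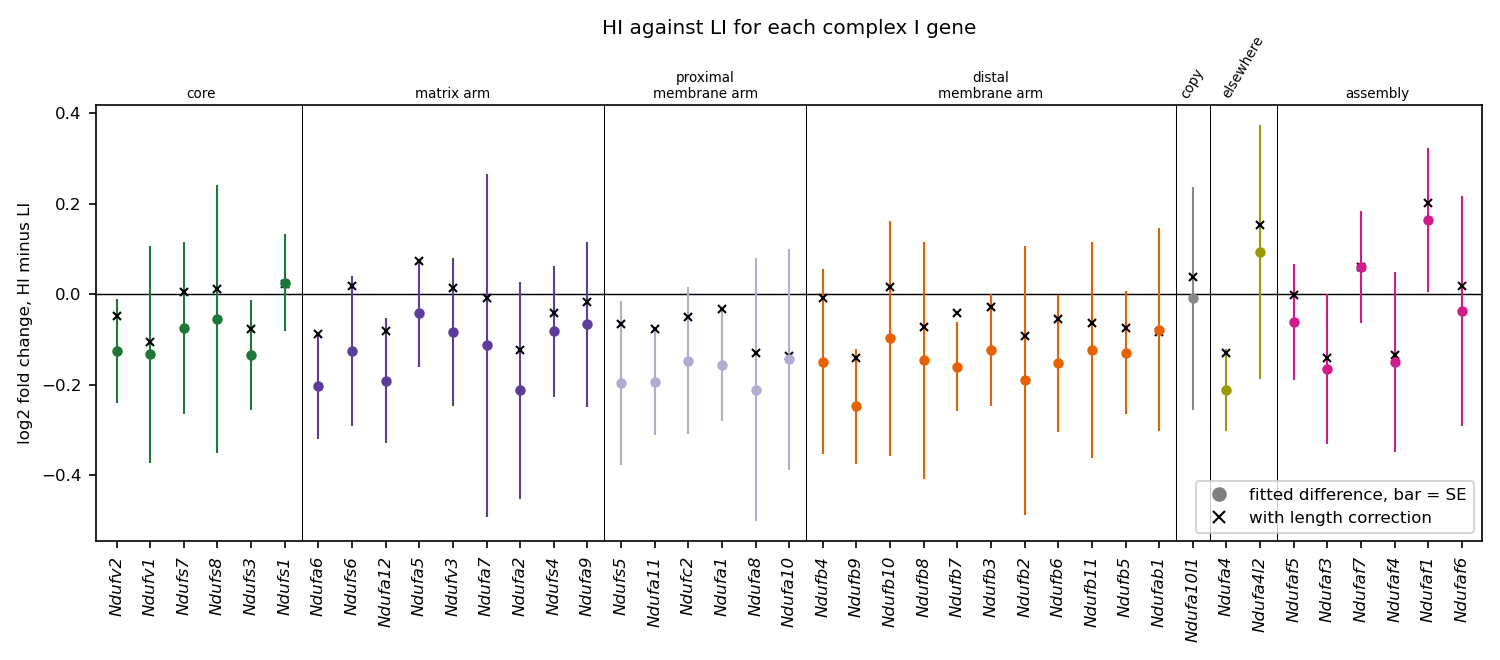
Fitted log2 fold change (HI minus LI) of the members shown with its SE (coloured points and bars, edgeR, 4 HI and 4 LI libraries) and the value with the length correction (black crosses), by role. Most subunit genes lie below 0, Ndufb9 lowest at -0.25, and fewer do so with the correction.

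Transcript length went with the difference. Subunit transcripts were short, with a median of 700 bases against 2198 for all genes tested, and assembly factor transcripts had a median of 1567 bases. The 516 tested genes under 750 bases had a median log2 fold change of -0.14, with 76.4% below 0. The 21 subunit genes of that length had a median of -0.15, with 21 of 21 below 0. Between 750 and 1500 bases the median over all genes was -0.07, between 1500 and 3000 bases -0.02, between 3000 and 6000 bases 0.05 and above that 0.16. The 15 subunit genes of 750 bases or more had a median of -0.12, with 13 below 0, among them Ndufv1 with 1481 and Ndufa10 with 1985. Across the 36 subunit genes, longer transcripts had values closer to 0 (Pearson's r = 0.46, Spearman's rank correlation = 0.48, over genes that share the same 8 libraries), and across all genes tested the rank correlation was 0.29.

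**Figure D3:**
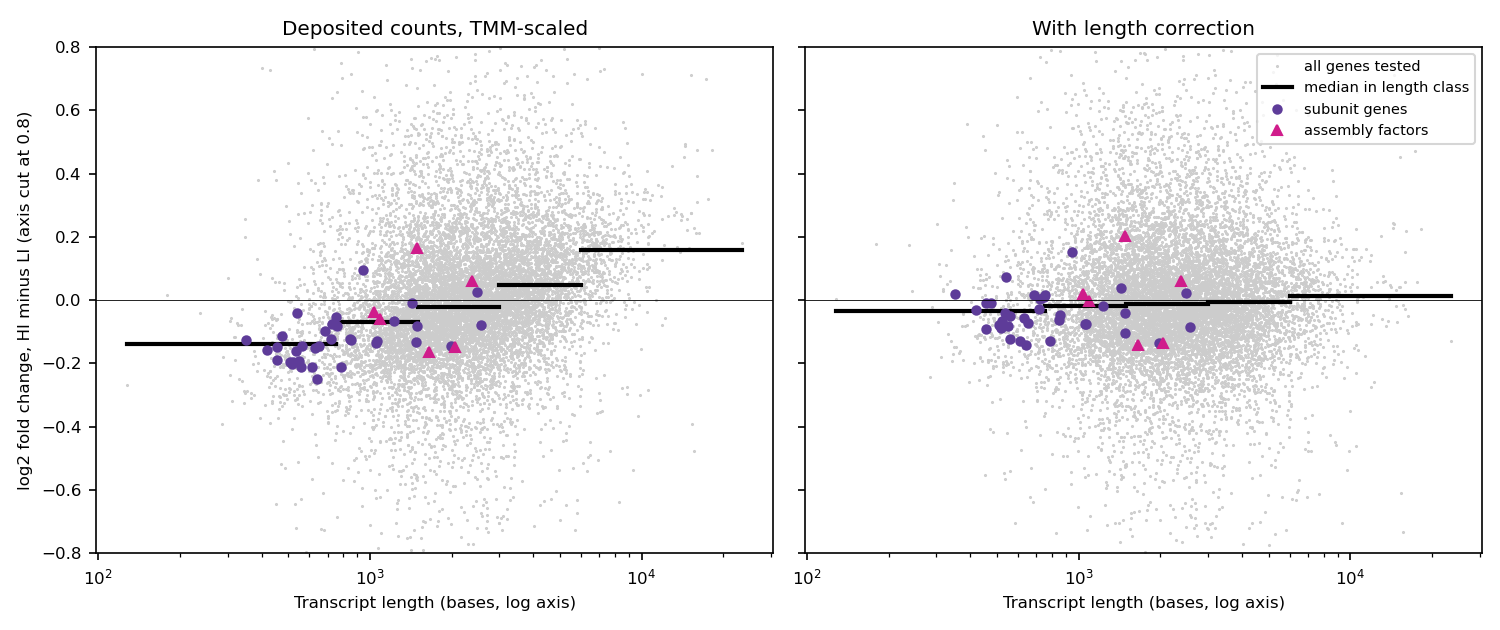
Log2 fold change (HI minus LI) against transcript length (log axis) for all genes tested (grey), subunit genes (purple circles) and assembly factors (pink triangles), before (left) and after (right) the length correction; black lines are medians within length classes. Before correction the class medians climb from -0.14 to 0.16 and the subunit genes follow the short end, and after it they run from -0.04 to 0.01.

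With a smooth length trend removed from each library the subunit median was -0.05, with 27 of 36 below 0, and the assembly factor median 0.0086, with 3 of 6 below 0. All genes under 750 bases then had a median of -0.04, and 53.0% of all genes were below 0. The rank correlation between length and difference across subunit genes became -0.07. Ndufa4 went from -0.21 to -0.13, Ndufb9 from -0.25 to -0.14, Ndufb7 from -0.16 to -0.04, Ndufb4 from -0.15 to -0.0078 and Ndufs8 from -0.05 to 0.01. By role the corrected medians were -0.05 for the core, -0.02 for the matrix arm, -0.07 for the proximal and -0.06 for the distal membrane arm. With a straight line on log2 length removed, the mean deviation of subunits was -0.04, -0.03, 0.02 and -0.02 for HI1 to HI4, and for LI1 to LI4 it was 0.07, -0.01, 0.02 and -0.02, so that the groups overlapped.

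Summed over genes, subunit transcripts took a smaller part of the RNA in HI. The 36 subunit symbols together came to 9691, 8631, 9589 and 9004 TPM for HI1 to HI4, and for LI1 to LI4 to 10581, 9979, 10269 and 10182 TPM. All HI sums lay below all LI sums, by 9.99% on average, and by 7.85% with ribosomal RNA left out of the total. The highest HI sum, 9691 TPM in HI1, lay below the lowest LI sum, 9979 TPM in LI2, so the order does not rest on HI4. Ndufb4, Ndufb9, Ndufs5 and Ndufa4 had the highest levels within the sum. The 7 core subunits alone overlapped between groups, at 1467 ± 144 TPM (SD, n = 4) for HI and 1586 ± 179 TPM for LI (SD, n = 4), and so did the assembly factors, at 175 ± 11.5 and 182 ± 14.0 TPM. The 495 other tested genes under 750 bases were lower in HI by 8.47% in summed TPM, also without overlap, and by 6.04%, with overlap, when ribosomal RNA was left out. The 69 mitochondrial ribosomal protein genes were lower by 7.73%, and by 5.51% with ribosomal RNA left out, both without overlap. The 41 genes of complexes II to V were lower by 10.5% and 8.12%, both with overlap. The summed microglia markers (above) did not overlap between the groups. Among them, Aif1 and Tmem119 had all HI below all LI in both CPM and TPM, and P2ry12 in TPM only. Cx3cr1 and Csf1r overlapped on both scales. Of all genes tested, 1.14% in CPM and 1.11% in TPM had all HI below all LI. The length slope averaged 0.03 ± 0.07 for HI and -0.03 ± 0.04 for LI, and ribosomal RNA 8.995% ± 11.2 for HI and 3.41% ± 2.96 for LI (SD, n = 4 each). The part of microglia markers, length slope and ribosomal RNA in the summed TPM was not tested.

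Other mitochondrial gene sets had like values. Of 41 tested genes of complexes II to V, 39 were below 0 with a median of -0.17 (-0.06 with the length correction), and of 69 mitochondrial ribosomal protein genes 59 were below 0 with a median of -0.11 (-0.05). A difference between these sets and complex I was not tested.

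Within the complex, transcripts differed in how they varied from library to library. HI4 and LI3, the libraries with the least ribosomal RNA, were the lowest 2 of the 8 in 16 members and the highest 2 in 8. Ndufa7, a small matrix arm subunit, stood at 35.4, 38.8, 30.2 and 15.4 CPM in HI1 to HI4 and 42.4, 46.7, 13.5 and 26.8 CPM in LI1 to LI4. Its mean log2 CPM in HI4 and LI3 differed from that in the other 6 by -1.31. Ndufb10, of the distal arm, stood at 91.0, 88.4, 128 and 170.4 CPM in HI1 to HI4 and 103, 91.1, 179 and 138 CPM in LI1 to LI4. There HI4 and LI3 were the highest, by 0.73. Ndufb2 (-0.99), Ndufa8 (-0.96), Ndufs8 (-0.95), Ndufb8 (-0.85), Ndufb11 (-0.77) and Ndufv1 (-0.69) went with Ndufa7. Ndufb4 (0.52), Ndufv3 (0.43), Ndufaf4 (0.41), Ndufs5 (0.40) and Ndufs4 (0.32) went with Ndufb10. In Ndufb10, Ndufb4, Ndufv3, Ndufaf4 and Ndufs4 all of HI3, HI4, LI3 and LI4 lay above all of HI1, HI2, LI1 and LI2. In Ndufs5 they did not, as HI3 lay below LI1. In Ndufa7, Ndufb2, Ndufa8, Ndufs8, Ndufb8, Ndufb11 and Ndufv1 they all lay below. Ndufa4 and Ndufs6 showed no such division. Where present, the division crossed HI and LI, and its cause was not tested. The genes listed for it were taken from those already named for their values in HI4 and LI3. The share of all genes with this division was not counted, so it is not shown to be particular to complex I.

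In the difference of HI4 and LI3 from the others, each arm and the core held genes on both sides of 0, and Ndufs6 (0.02) and Ndufa4 (-0.04) were near 0. These differences reached beyond the largest HI minus LI value of any member, -0.25. HI4 and LI3 were also the lowest 2 in 22.3% of all genes tested and the highest 2 in 19.9%, and in 29.7% and 15.7% of genes under 750 bases. With group means removed, pairs of supernumerary subunits had a median correlation of 0.09 over the 8 libraries, with quartiles of -0.69 and 0.82 over 325 pairs. Pairs of core subunits had a median of 0.24, pairs of a core and a supernumerary subunit 0.14 and pairs of assembly factors 0.27. For all gene pairs the median was 0.0038, with quartiles of -0.48 and 0.49. Ndufa2 (0.97), Ndufc2 (0.95) and Ndufb5 (0.94) followed the mean of the other subunits most closely, and Ndufb10 (-0.84) and Ndufv3 (-0.81) ran opposite to it. HI4 and LI3 also had the lowest ribosomal RNA shares and the highest Snap25, with HI3 and LI4 next in both. HI4 had the highest length slope. Their part in this pattern was not tested.

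**Figure D4:**
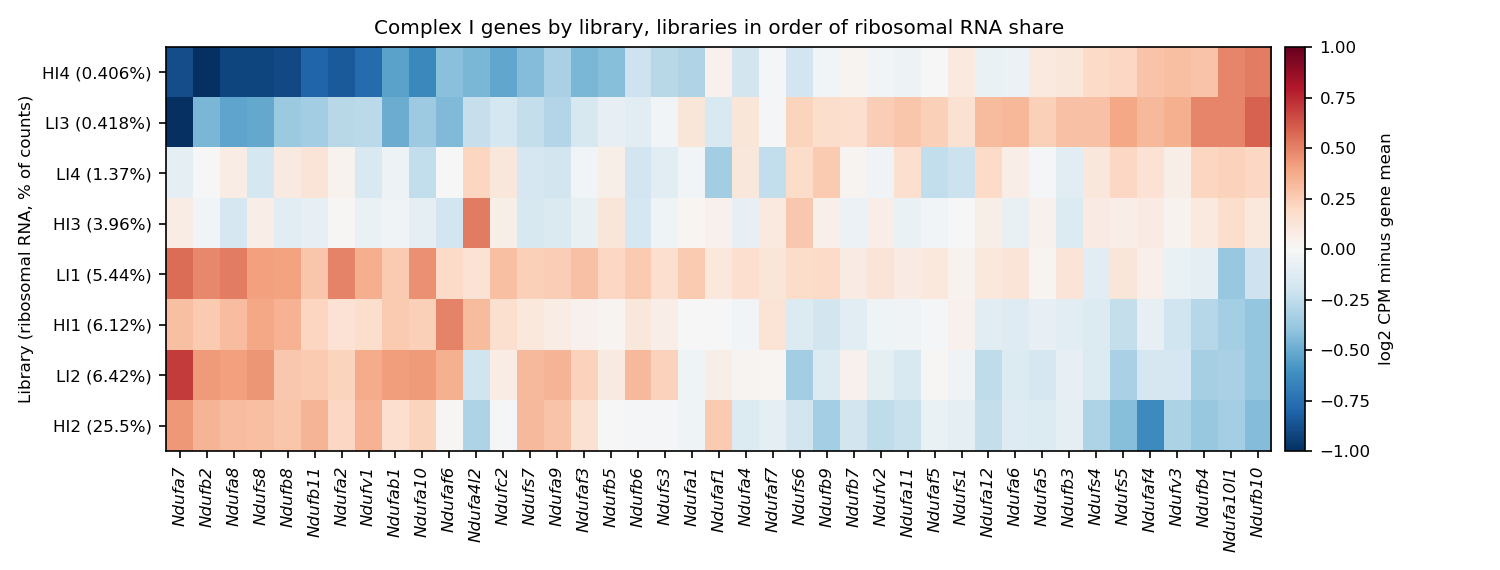
Deviation of log2 CPM from each gene's own mean (colour, red higher and blue lower) for the members shown, with libraries from the lowest to the highest ribosomal RNA share (top to bottom) and genes ordered by their difference between HI4 and LI3 and the other 6. The genes at the left are low in HI4 and LI3, down to -1.31 for Ndufa7, and those at the right are high, up to 0.73 for Ndufb10.

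Ndufa10 and Ndufa10l1 show this opposition within a pair of copies. Ndufa10 encodes a supernumerary subunit related to nucleoside kinases, and Ndufa10l1 is named for its likeness to it. RefSeq (GRCr8) places Ndufa10 at chr9:100454498-100490023 and Ndufa10l1 at chr6:65606866-65608299, a span equal to its transcript of 1434 bases, so without introns. Their expected counts were not whole (over 0.005 from the nearest integer) in 8 of 8 libraries, those of Ndufa2 in 4, those of Ndufab1 in 2 and those of the other members in 0. Ndufa10 stood at 95.02, 94.1, 75.6 and 51.5 CPM in HI1 to HI4 and 111, 108, 62.4 and 68.0 CPM in LI1 to LI4. Ndufa10l1 stood at 64.5, 64.8, 92.7 and 115 CPM in HI1 to HI4 and 62.9, 65.4, 115 and 95.9 CPM in LI1 to LI4. Ndufa10 took 59.6%, 59.2%, 44.9% and 30.9% of the joint count in HI1 to HI4. In LI1 to LI4 it took 63.8%, 62.3%, 35.2% and 41.5%. Its share was thus lower in HI3, HI4, LI3 and LI4 than in HI1, HI2, LI1 and LI2. The sum of both was 159.5, 159, 168 and 167 CPM for HI1 to HI4, and for LI1 to LI4 it was 174, 173, 178 and 164 CPM. The sum varied with a coefficient of variation of 4.07%, against 26.4% for Ndufa10 and 27.1% for Ndufa10l1. Neither copy differed between HI and LI beyond its spread (-0.14 ± 0.24 and -0.01 ± 0.25), and how the authors divided reads that match both was not stated. The sign of Ndufa10l1 turned without HI1 (0.10), HI2 (0.10), LI3 (0.17) or LI4 (0.05).

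**Figure D5:**
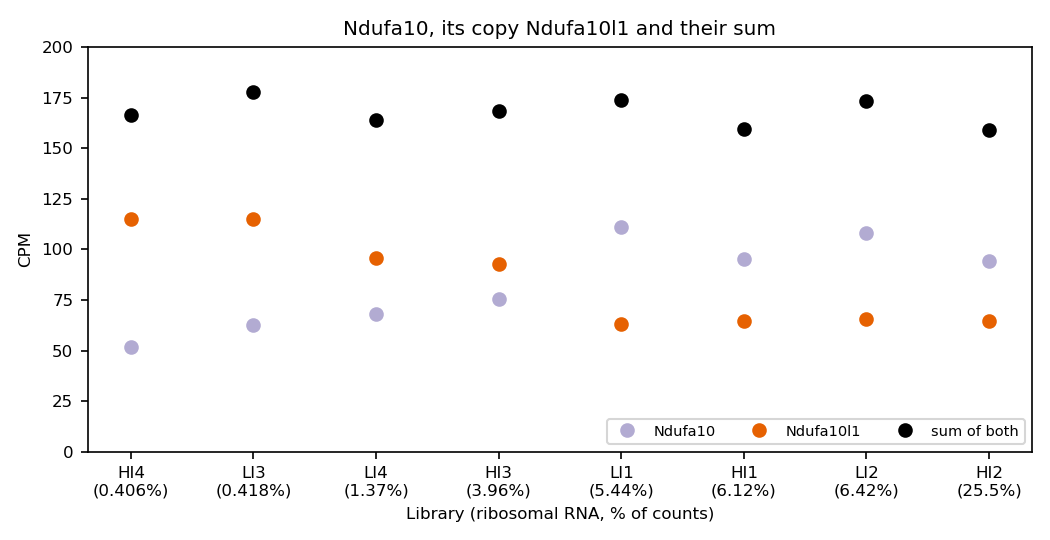
CPM of Ndufa10, its copy Ndufa10l1 and their sum in each library, with libraries from the lowest to the highest ribosomal RNA share (left to right). Each copy varies by over 26% (coefficient of variation) while the sum stays between 159 and 178 CPM.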

How the data were processed

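Members and gene lists were chosen with earlier results of these data known. Per the file headers, the authors deposited for each of 8 libraries an expected count, a TPM, an FPKM and a transcript length for 17168 genes. The aligner Bowtie2 2.1.0 appears per the submitters' processing notes. Quantification program, annotation, genome build and strand use: not given in the sources used here. Counts of overlapping genes, copies and pseudogenes (39 are named for 17 members in RefSeq, GRCr8) are therefore uncertain.

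After rounding expected counts to integers, libraries were scaled by TMM and filtered with filterByExpr (minimum count 10, minimum total 15). HI was compared with LI by edgeR 4.0.16 quasi-likelihood under R 4.3.3, with Benjamini-Hochberg adjustment over 11631 genes and a threshold of 0.1, the alpha of the series' design text. The Fisher's exact test named there pools libraries and was not used. CPM were computed by edgeR on TMM-scaled sizes (prior count 2 on the log2 scale). The SE is the absolute log2 fold change over the square root of F. The deposited TPM were used for levels and, as log2(TPM + 1) and log2(TPM + 0.1), in limma 3.58.1. The deposited FPKM were not used. The length correction added a loess trend of each library on log2 length to the edgeR offsets. Other alternatives were DESeq2 1.42.0, limma-voom, other filters, a replicate block, ribosomal RNA share (Rn45s and Rn28s) as a covariate, and leaving out libraries. Values in each library are given for the core subunits, the assembly factors, the 3 members of smallest p in each other role group, and members whose groups do not overlap, and Ndufa7, Ndufb10 and Ndufa10 were added after their values were seen. One member is counted in the totals but is not reported here by name. No libraries of a group were within sampling noise of each other. The tests were run on simulated counts beforehand. Counts were lowest, and precision from counting poorest, for Ndufa4l2 and Ndufaf6.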

Additional observations from a re-analysis of the deposited data

Results flagged for a closer look

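In a group of 4 libraries, a value was marked when its gap to the nearest other exceeded Dixon's 95% limit as a share of the group's range. Chance marks about 1 in 20 groups, and 94 groups were examined, 84 of them of single members. Ndufb3, of the distal membrane arm, stood at 79.1 CPM in HI4, where the other HI libraries held 66.4 to 68.3. Ndufs6, a small zinc-binding subunit of the matrix arm, stood at 51.5 CPM in HI3 against 37.3 to 38.8 in the other HI libraries. In LI, Ndufs6 stood at 33.4 CPM in LI2 against 48.5 to 49.8. The slope of log2 CPM on log2 transcript length was 0.13 in HI4, against -0.0078 to 0.0090 in the other HI libraries.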

How the results depend on the processing

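The subunit median of -0.13 kept its sign in every setting, from -0.05 with the length correction to -0.18 without HI1, and lay between -0.18 and -0.08 when each library was left out in turn. The assembly factor median of -0.05 turned to 0.0086 with the length correction and ran from -0.10 to 0.0098 when each library was left out. Members called numbered 0 throughout, and genes called 0 in every setting but DESeq2, with 38. With the replicate block the medians were -0.14 and -0.05 with 0 calls, and it changed no call. The titles share replicate numbers, but same-numbered deviations correlated by 0.22, 0.54, -0.05 and 0.06, so the numbers were not taken as pairs. Of the 25 members that the rule above selected for values in each library, 14 kept their sign in every setting. The 25 include the member not reported by name and leave out Ndufa7, Ndufb10 and Ndufa10, which were added later. The length correction turned Ndufa10l1 (0.039), Ndufaf6 (0.019), Ndufs7 (0.0051) and Ndufs8 (0.011). The ribosomal RNA covariate turned Ndufa10l1 (0.17) and Ndufaf4 (0.021). Leaving out both HI4 and LI3 turned Ndufaf5 (0.0029) and Ndufs8 (0.0057). Alternatives added after seeing the data summed the Ndufa10 copies (subunit median -0.13) or joined the covariate with leaving out a library. Without HI4 that joint fit turned the assembly factor median (0.015), Ndufa10l1 (0.030), Ndufaf6 (0.059) and Ndufs8 (0.030), and without LI3 the assembly factor median (0.037), Ndufa10l1 (0.30), Ndufaf4 (0.061), Ndufaf5 (0.014) and Ndufs5 (0.0066). Leaving out each library gave ranges of -0.20 to 0.17 for Ndufa10l1, -0.10 to 0.24 for Ndufa4l2, -0.28 to 0.0015 for Ndufaf4, -0.15 to 0.013 for Ndufaf5, -0.26 to 0.086 for Ndufaf6, -0.013 to 0.11 for Ndufaf7, -0.042 to 0.084 for Ndufs1, -0.20 to 0.042 for Ndufs7, -0.21 to 0.16 for Ndufs8 and -0.28 to 0.050 for Ndufv1. The cause was not tested.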

Other observations

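Of 7 listed regulators of mitochondrial gene expression, 5 had a log2 fold change above 0, against 48.5% of all genes, and 2 below, with a median of 0.16. In edgeR's test 0 passed, and 1 was higher at an unadjusted p under 0.05, where 3.07% of all genes were. A difference from the subunits was not tested. Ppargc1b, a coactivator of respiratory genes, averaged 16.96 ± 1.001 CPM (SD, n = 4) over HI and 12.997 ± 2.36 CPM (SD, n = 4) over LI, with a log2 fold change of 0.38 ± 0.16. All HI lay above all LI in CPM, as in 2.31% of all genes, but on the TPM scale the groups overlapped, HI2 at 10.4 TPM lying below LI4 at 10.9 TPM. Nrf1, which encodes NRF-1, differed by 0.21 ± 0.17, Tfam, the mitochondrial DNA packaging factor, by 0.16 ± 0.12, and Ppargc1a by 0.44 ± 0.33. Yy1 differed by 0.12 ± 0.13, Esrra by -0.10 ± 0.39 and Gabpa by -0.01 ± 0.25. In these 6 HI and LI overlapped on both scales.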
